A study of Rattus norvegicus with 40 samples.

Results

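Synaptic vesicle release and glutamate receptor genes were followed in rat dorsal root ganglia (DRGs) after spinal nerve ligation (SNL). The set holds 40 genes, of which 28 encode proteins that dock, prime, fuse or retrieve synaptic vesicles, 2 encode vesicular glutamate transporters and 10 encode glutamate receptor subunits. A probe set was assigned to a gene when the platform annotation gave exactly that symbol, and each gene was represented by the probe set with its highest mean signal over all arrays. All 40 members were found, among 14217 genes with such a probe set. They have 66 probe sets in all, and 19 members have more than 1.

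Transmitter release begins when a vesicle SNARE protein of the synaptobrevin family (the Vamp genes) zips together with syntaxin and SNAP-25 on the plasma membrane. Synaptotagmins sense calcium and trigger fusion, complexins clamp and promote it, and NSF with its SNAP adaptors takes the spent complexes apart. Sensory neurons of the DRG load glutamate into vesicles through the transporters VGLUT1 and VGLUT2, release it in the spinal cord, and carry AMPA, kainate, NMDA and metabotropic glutamate receptors of their own.

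The animals were male Sprague-Dawley rats, and 40 Affymetrix rat genome arrays, 1 for each DRG, make up the data. In the SNL cohort of 5 rats the left L5 spinal nerve was tied tightly distal to the DRG, so that the axons of the ipsilateral L5 DRG were injured while those of the neighbouring L4 DRG were not tied. The sham cohort of 5 rats underwent the same operation without the ligature. Ipsilateral and contralateral L4 and L5 DRGs were taken 4 weeks later, which gave 8 groups of 5 arrays. Each array comes from a separate DRG of a separate rat within its group, so the spread between arrays is a spread between rats. A whole DRG contains neurons, glia, vessels, connective tissue and immune cells, and fewer neurons cannot be told apart from less RNA per neuron in such tissue.

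Signals are MAS 5 intensities on a linear scale. Fold changes are differences of log2(signal + 16), ipsilateral minus contralateral, and understate the change of dim genes. A gene was called when its adjusted p in limma, corrected over all 31042 probe sets, was below 0.05. Array medians ran from 28.6 to 55.6 and were higher on the ipsilateral side in all 4 side comparisons, by 4.97 to 7.12 units. The ratio of the 3′ to the 5′ control probe set of GAPDH, a measure of RNA integrity, was also higher on the ipsilateral side, with log2 differences of 0.95 for SNL L4, 0.64 for SNL L5 and 0.43 for sham L4. In each of these comparisons the sides did not overlap (p = 0.00794 in a two-sided exact permutation test, which 5 against 5 arrays cannot go below). In sham L5 it was higher by 0.09 (exact permutation p = 0.175). The same ratio of actin was higher by 1.14 in SNL L5 (exact permutation p = 0.00794) and by 0.77 in SNL L4 (p = 0.0159), and its difference was 0.22 in sham L5 (p = 0.0556) and -0.21 in sham L4 (p = 0.159). The L5 arrays of the SNL cohort carry names of another array series than the other 30, but each side comparison lies within 1 series. The array numbers in these names run by group, with ipsilateral arrays before contralateral ones in every side comparison. Array order and side therefore cannot be told apart.

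**Figure D1:**
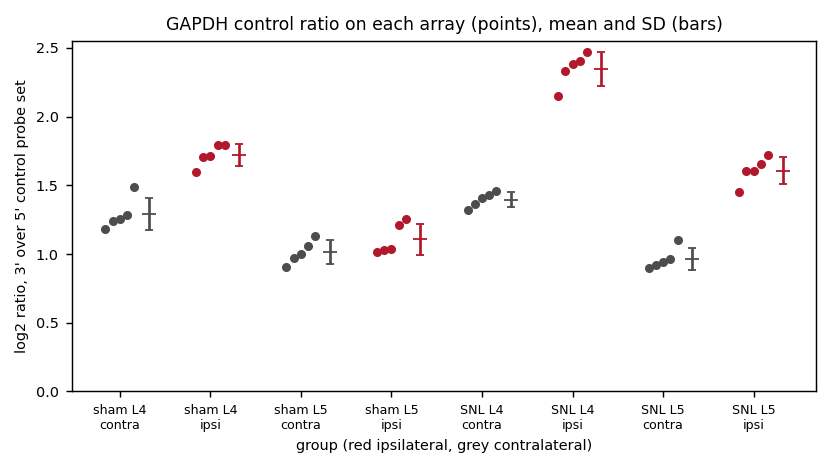
GAPDH control probe sets, 3′ over 5′ signal as a log2 ratio (vertical axis), on each of the 40 arrays by group. Each point is 1 array, and bars show the mean with its SD over 5. Ipsilateral L4 DRGs of the SNL cohort have the highest mean, 2.35, against 1.40 on their contralateral side.

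In the ligated L5 DRG the vesicle release genes fell more often than they rose, while the glutamate receptor genes went both ways. Of the 40 members, 17 were called lower, 10 higher and 13 were not called. Over all genes, 19% were called lower and 35.4% higher, so the balance of the members was the other way round. The median log2 fold change of the members was -0.08, against 0.13 over all genes. Ipsilateral and contralateral signals did not overlap for 23 members, where 40.7% of all genes had no overlap. Of the 28 vesicle release genes, 13 were lower and 4 higher (median -0.21). Of the 10 receptor subunits, 3 were lower and 5 higher (median 0.19). After quantile normalization 20 members were lower and 7 higher, and after scaling to equal medians 22 were lower and 3 higher. All 17 falls were called under both of these scalings, but of the 10 rises those of *Syt4* and *Grm8* alone were. The median of all probe sets was 0.12 in this comparison as deposited, 0.03 after quantile normalization and 0.00 at equal medians.

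Of the 5 SNARE genes, 3 fell in the ligated L5 DRG and none rose. *Vamp1* encodes synaptobrevin 1, the vesicle SNARE best known from motor nerve terminals. Its contralateral signals were 704, 719, 770, 782 and 836, and its ipsilateral signals were 190, 201, 213, 214 and 258. The sides were far apart, and the log2 fold change was -1.75 (SE 0.07, limma adjusted p = 2.26e-12). For *Vamp2*, synaptobrevin 2, the contralateral signals were 550, 550, 582, 588 and 613 and the ipsilateral ones 255, 258, 269, 293 and 306. No ipsilateral array reached the contralateral range (log2 fold change -1.02, SE 0.06, limma adjusted p = 1.92e-10). *Snap25*, the plasma membrane SNARE SNAP-25, went down from 2634 ± 286 to 1961 ± 195 (SD, n = 5), which was -0.42 on the log2 scale (limma adjusted p = 0.000276). *Vamp3*, cellubrevin, which serves membrane traffic in most cells, had a log2 fold change of 0.05, and *Stx1a*, syntaxin 1A, one of 0.13. Neither was called.

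Short promoter windows are shown for *Vamp1* and *Syn1*, which fell in this DRG, because each holds the cyclic AMP response element, the site that CREB proteins bind. The letters searched were TGACGTCA, which read the same on both strands and are in capitals below, in the 300 bases around each start site in RefSeq (assembly GRCr8).
*Vamp1* (chr4:159698813-159698840, plus strand, 71 bases before the start): ctggagatttTGACGTCAtccacgaggc
*Syn1* (chrX:3725545-3725572, plus strand, 190 bases before the start): aaaggcgggcTGACGTCActctccagcc
Promoters were matched for 30 members, and 2 of the 30 held these letters (6.67%), against 1.83% of 33469 promoters. The AP-1 letters TGANTCA, searched on both strands, were found in 1 of the 30, that of *Syp*, against 7.33% of all promoters. A match of letters does not show that a factor bound there.

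The genes that take SNARE complexes apart fell together in the ligated L5 DRG. *Nsf* encodes the ATPase that pulls the complexes apart. Its signals were 670, 681, 694, 714 and 722 on the contralateral side and 400, 418, 423, 432 and 459 on the ipsilateral side. *Napb*, beta-SNAP, the neuronal adaptor that brings NSF to the complex, had contralateral signals of 566, 572, 584, 600 and 609 and ipsilateral signals of 247, 284, 286, 293 and 322. The sides of both genes were separate, with a log2 fold change of -0.69 for *Nsf* (SE 0.05, limma adjusted p = 3.93e-09) and of -0.997 for *Napb* (SE 0.06, limma adjusted p = 4.15e-10). *Cplx1* was not called on its brightest probe set (log2 fold change -0.03), while its dimmer one fell by 1.07 (limma adjusted p = 7.26e-08), and *Cplx2* was called higher (0.37, limma adjusted p = 0.0305) with overlapping sides, a call that was lost under both scalings, with the rat as a block (adjusted p = 0.0548) and without any of 6 single arrays (adjusted p = 0.0581 to 0.0896).

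Of the 6 synaptotagmins, 3 fell and 1 rose in the ligated L5 DRG. *Syt11*, a synaptotagmin that does not bind calcium, had contralateral signals of 44.4, 50.9, 52.8, 62.9 and 64 and ipsilateral signals of 2.73, 8.45, 9.78, 13.4 and 18.9. *Syt9*, a calcium sensor, had signals of 30.4, 30.4, 30.6, 30.8 and 41.1 against 2.16, 2.43, 2.89, 3.88 and 9.62. Both are dim genes whose ipsilateral signals were mostly close to the floor of the array. Their log2 fold changes were -1.44 for *Syt11* (SE 0.15, limma adjusted p = 3.95e-07) and -1.28 for *Syt9* (SE 0.12, limma adjusted p = 1.33e-07). *Syt1*, the main sensor for fast release in the forebrain, was dim on this probe set too, at 16.1 ± 3.24 against 6.29 ± 4.14 (SD, n = 5), and was called lower (-0.54, limma adjusted p = 0.00306). *Syt4*, a synaptotagmin of neuropeptide vesicles, went the other way. Its signals were 896, 1020, 1020, 1060 and 1270 on the contralateral side and 1520, 1530, 1580, 1600 and 1790 on the ipsilateral side. Every ipsilateral array was above every contralateral array (log2 fold change 0.61, SE 0.08, limma adjusted p = 3.68e-06). The dimmer probe set of *Syt4* was called in the other direction (-0.48, limma adjusted p = 0.00845). *Syt5* and *Syt7* were not called.

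**Figure D2:**
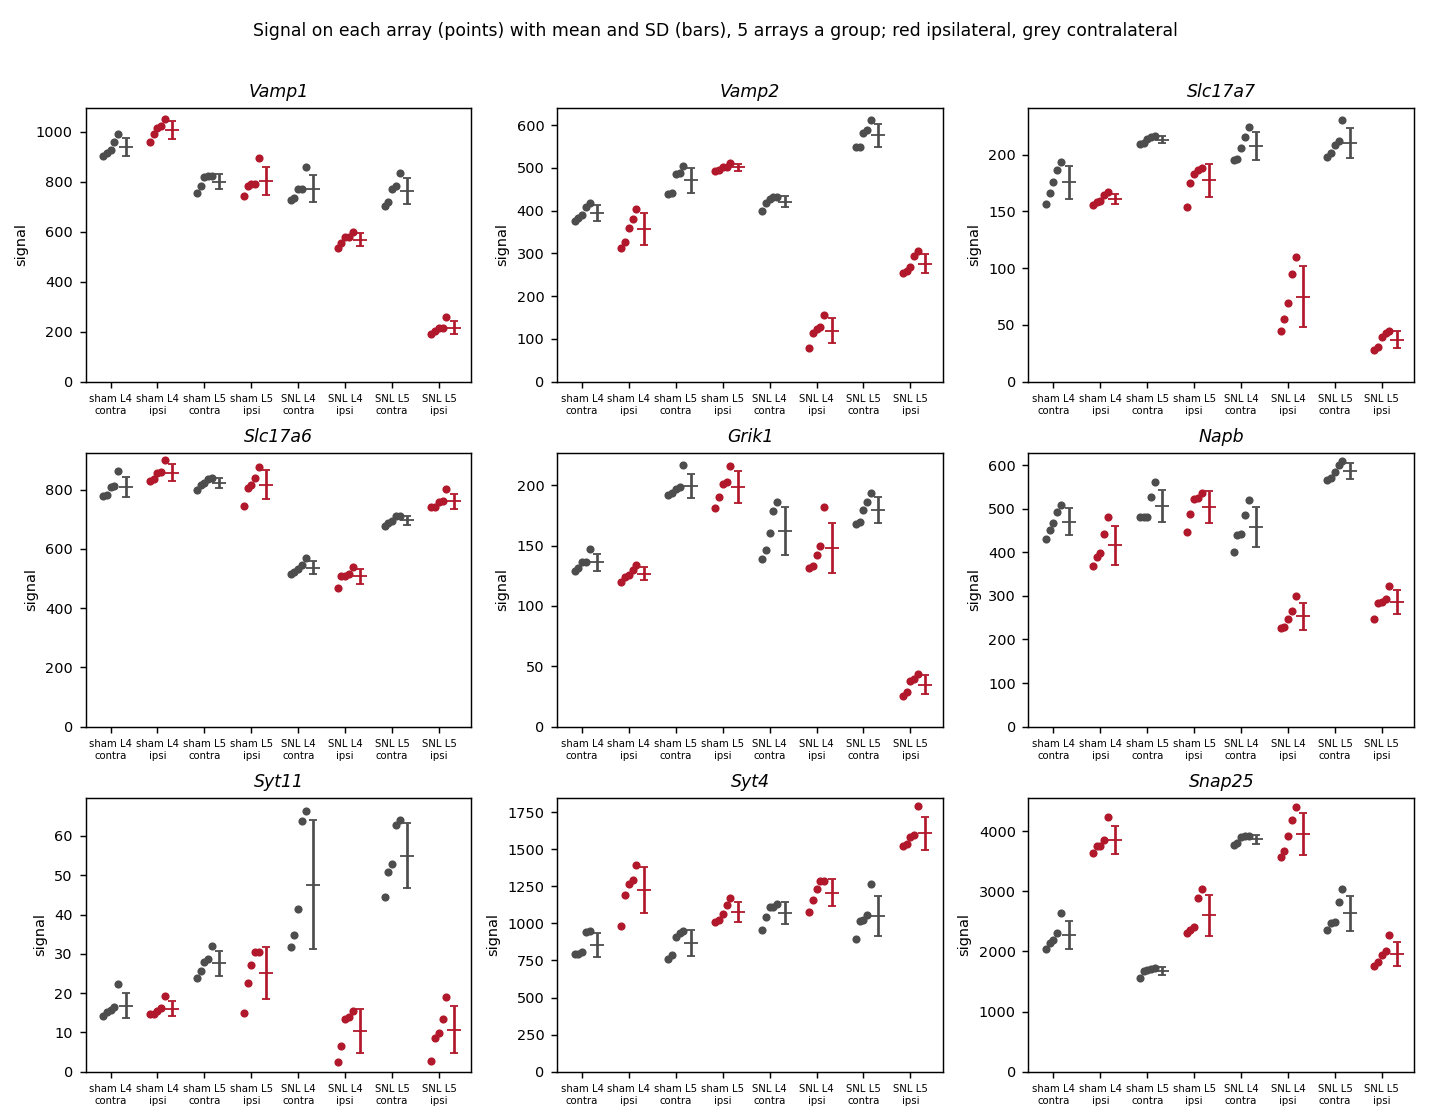
Signal (vertical axis, linear intensity) on each of the 40 arrays by group, with 1 member in each panel. Points are arrays, grey for contralateral and red for ipsilateral, and bars give the mean and SD of 5. *Vamp1* and *Grik1* are lowest in the ipsilateral L5 DRG of the SNL cohort, and *Vamp2* is lowest in the ipsilateral L4 DRG of that cohort.

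Several genes of the vesicle membrane, the Rab3 switch and endocytosis also fell in the ligated L5 DRG. *Syn1*, synapsin 1, which tethers vesicles in the reserve pool, had contralateral signals of 386, 408, 459, 471 and 485 and ipsilateral signals of 277, 280, 285, 309 and 332 in SNL L5. The sides were separate, with a log2 fold change of -0.55 (SE 0.07, limma adjusted p = 4.29e-06). *Syn2* fell by 0.54 and *Syp*, synaptophysin, fell by 0.42 on the log2 scale, while *Sv2a*, *Sv2b* and *Sv2c* were not called on their brightest probe sets. A dimmer *Sv2b* probe set was called lower (-1.002, limma adjusted p = 2.60e-08). *Rab3a*, the small GTPase of synaptic vesicles, had contralateral signals of 1190, 1190, 1200, 1300 and 1490 and ipsilateral signals of 722, 732, 828, 871 and 894. It fell on every array relative to the contralateral range (-0.64, SE 0.07, limma adjusted p = 1.38e-06). The dimmer *Rab3a* probe set had signals of 348, 371, 384, 387 and 414 against 110, 114, 116, 121 and 130, a wider separation (-1.57, limma adjusted p = 1.15e-12). *Rims2*, an active zone scaffold that binds Rab3, rose from 59.8 ± 14.9 to 88.0 ± 10.3 (SD, n = 5; log2 fold change 0.47, limma adjusted p = 0.00392), a call lost at equal medians (adjusted p = 0.0657). *Amph*, amphiphysin, which recruits dynamin to endocytic necks, had signals of 51.6, 53.8, 54.5, 57.6 and 60.5 against 20.1, 24.9, 26.7, 30.3 and 36.1. Its sides did not meet (-0.72, SE 0.11, limma adjusted p = 2.54e-05). *Snap91*, the clathrin adaptor AP180, rose by 0.34 (limma adjusted p = 0.00128), except at equal medians (0.13, adjusted p = 0.212), and *Dnm1*, dynamin 1, was not called.

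The vesicular glutamate transporters parted in the ligated L5 DRG. *Slc17a7*, VGLUT1, which is found in large myelinated sensory neurons, had the largest fold change of the 40 members on their brightest probe sets. Its contralateral signals were 198, 202, 209, 212 and 231, and its ipsilateral signals were 27.8, 30.7, 39.6, 42.7 and 44.5. The log2 fold change was -2.10 (SE 0.09, limma adjusted p = 5.33e-12), with every ipsilateral array far below the contralateral ones. *Slc17a6*, VGLUT2, the transporter of most sensory neurons, had means of 697 ± 15.4 and 761 ± 25.2 (SD, n = 5). Its small rise was called (log2 fold change 0.13, limma adjusted p = 0.0320), but it was -0.09 at equal medians, and the call was lost with the rat as a block (adjusted p = 0.0687). It was also lost when the array of rat 09 (either side), rat 48 (contralateral) or rat 08 (ipsilateral) was left out, at adjusted p values of 0.0519 to 0.0849.

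Among receptor subunits the kainate receptor gene *Grik1* stood apart in the ligated L5 DRG. *Grik1* encodes GluK1, the kainate receptor subunit of small-diameter DRG neurons. Its contralateral signals were 168, 170, 180, 187 and 194 and its ipsilateral signals 25.3, 28.7, 37.9, 39.1 and 43.4. The sides were far apart (log2 fold change -1.95, SE 0.10, limma adjusted p = 2.73e-11). *Grik5*, its partner subunit GluK5, was dim and not called (0.17). *Gria2*, the AMPA receptor subunit that limits calcium entry, went down from 240 ± 12.8 to 181 ± 14.4 (SD, n = 5), by a log2 value of -0.38 (limma adjusted p = 7.25e-05). The other AMPA subunit genes were called higher, *Gria1* by 0.50, *Gria4* by 0.30 and *Gria3* by 0.21 on the log2 scale. Under quantile normalization none of these rises was called (limma adjusted p = 0.0598, 0.0523 and 0.188), and at equal medians *Gria1* alone was. *Grin1*, the obligatory NMDA subunit, fell by 0.49 (limma adjusted p = 0.00161), although its dimmer probe set was called higher (0.32, limma adjusted p = 0.0355). *Grin2b*, a regulatory NMDA subunit, was called higher (0.41, limma adjusted p = 0.00991) but under neither scaling. *Grm8*, a presynaptic metabotropic receptor, rose from 59 ± 13 to 87.0 ± 9.36 (SD, n = 5; log2 fold change 0.47, limma adjusted p = 0.00233). Of its 2 dimmer probe sets, 1 was called lower (-0.33, limma adjusted p = 0.0392) and the other was not called (0.15). *Grm7* was not called.

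**Figure D3:**
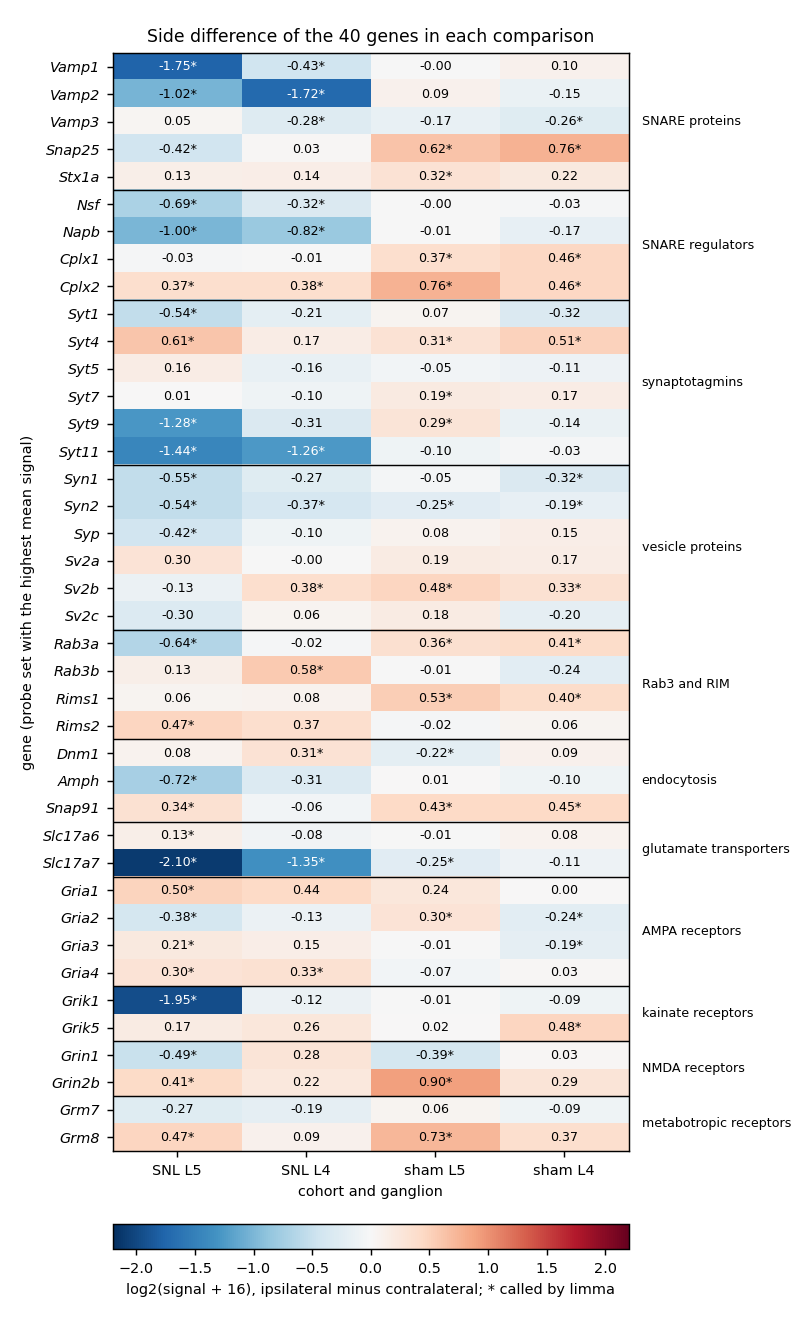
Log2 fold change, ipsilateral minus contralateral, of each of the 40 members (rows, grouped by role) in the side comparisons. Blue cells are lower and red cells higher on the ipsilateral side, and a star marks a limma call. *Slc17a7*, *Vamp2*, *Syt11* and *Napb* are lower in both SNL columns, whereas *Grik1* is called in SNL L5 alone.

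In the L4 DRG of the SNL cohort, beside the ligated segment, fewer members moved, and several fell strongly. Of the 40 members, 8 were lower, 5 higher and 27 were not called, where 10% of all genes were lower and 11% higher. The median log2 fold change was -0.04, against 0.07 over all genes. The sides did not overlap for 8 members, against 16.2% of all genes. Quantile normalization gave 8 lower and 3 higher, and equal medians gave 12 lower and 1 higher. *Vamp3* aside, the falls were called under both scalings, and of the rises that of *Sv2b* alone was.

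The SNARE gene *Vamp2* had the largest change in SNL L4 on the members' brightest probe sets. Its contralateral signals were 399, 417, 428, 431 and 431, and its ipsilateral signals were 77.6, 113, 123, 128 and 155. The sides were far apart, with a log2 fold change of -1.72 (SE 0.12, limma adjusted p = 2.28e-08). The brightest *Vamp1* probe set went from 726, 733, 769, 771 and 860 on the contralateral side to 533, 556, 577, 579 and 597 on the ipsilateral side (-0.43, SE 0.06, limma adjusted p = 4.66e-05), again without overlap. *Vamp3* was called lower (-0.28) with overlapping sides, and *Snap25*, at 3864 ± 71.5 and 3954 ± 352 (SD, n = 5), was not called as deposited, but was called lower after quantile normalization (-0.17, limma adjusted p = 0.00443).

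*Napb* and *Nsf* fell in SNL L4 as they did in SNL L5. *Napb* had signals of 400, 440, 443, 486 and 521 on the contralateral side and 226, 228, 246, 265 and 299 on the ipsilateral side. *Nsf* had signals of 667, 718, 729, 749 and 770 against 563, 573, 579, 584 and 587. Neither gene's sides met, and the log2 fold changes were -0.82 for *Napb* (SE 0.09, limma adjusted p = 2.45e-06) and -0.32 for *Nsf* (SE 0.05, limma adjusted p = 0.000339). *Syt11* fell from 31.6, 34.8, 41.5, 63.8 and 66.4 to 2.52, 6.45, 13.5, 14 and 15.5, again without overlap (-1.26, SE 0.21, limma adjusted p = 0.000330). No other synaptotagmin was called in SNL L4.

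*Slc17a7* also fell in SNL L4. The contralateral signals were 196, 196, 206, 215 and 224 and the ipsilateral ones 44.9, 55.4, 69.0, 94.5 and 109. The ipsilateral arrays spread more widely than the contralateral ones, but all were lower (log2 fold change -1.35, SE 0.16, limma adjusted p = 7.08e-06). The dimmer *Slc17a7* probe set was called higher in SNL L4 (0.56, limma adjusted p = 0.0369) and lower in SNL L5 (-0.59, limma adjusted p = 0.00813). *Slc17a6* was not called in SNL L4 (-0.08).

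On the brightest probe sets the rises in SNL L4 were at most 0.58 on the log2 scale. *Sv2b*, a vesicle glycoprotein, had signals of 1990, 2030, 2050, 2150 and 2260 on the contralateral side and 2460, 2720, 2770, 2800 and 2860 on the ipsilateral side. These did not overlap (log2 fold change 0.38, SE 0.06, limma adjusted p = 9.18e-05). *Gria4*, the AMPA subunit GluA4, had signals of 101, 110, 116, 126 and 126 against 128, 130, 161, 163 and 169, without overlap but with a narrow gap (0.33, SE 0.10, limma adjusted p = 0.0305). Its call was lost when either array of rat 04 or rat 48, the contralateral one of rat 08 or the ipsilateral one of rat 09 was left out, at adjusted p values of 0.0548 to 0.0838. *Rab3b* (0.58), *Cplx2* (0.38) and *Dnm1* (0.31) were called higher with overlapping sides, and *Syn2* (-0.37) was called lower with overlapping sides. *Grik1*, which fell so far in SNL L5, had a log2 fold change of -0.12 in SNL L4 (limma adjusted p = 0.459). On the brightest probe sets *Gria4* was the one receptor subunit called there.

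The SNL comparisons of L5 and L4 had 9 calls in common. *Vamp1*, *Vamp2*, *Syt11*, *Syn2*, *Nsf*, *Napb* and *Slc17a7* were lower in both, and *Cplx2* and *Gria4* were higher in both. The rises of *Cplx2* and *Gria4* were called neither after quantile normalization nor at equal medians, in L5 and in L4 alike. No member was called in opposite directions on its brightest probe set. A further 18 members were called in L5 and not in L4, and 4 were called in L4 and not in L5. Over all genes 19% were lower and 35.4% higher in SNL L5, against 10% and 11% in SNL L4. The share of all genes called in both was not counted. These counts of members rest on the brightest probe sets. Dimmer ones of *Rab3a* (-1.28), *Syn1* (-0.85) and *Gria2* (-0.35) were called lower in SNL L4 too, and that of *Gria3* (1.04) was called higher. The test of the difference between segments put 10 members lower in L5 than in L4 and 5 higher, where 10.3% of all genes were lower and 15.1% higher (3 higher and 13 lower at equal medians). *Grik1* (-1.83, SE 0.15, limma adjusted p = 2.38e-10) and *Vamp1* (-1.32, SE 0.10, limma adjusted p = 3.66e-11) fell further in L5, while *Vamp2* fell further in L4 (difference 0.69, SE 0.14, limma adjusted p = 0.000449). The L5 and L4 arrays of this cohort belong to different array series, so array series and segment cannot be told apart in this test.

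Without a ligature the members moved the other way more often. In sham L5, 14 members were higher, 4 lower and 22 not called, where 21.4% of all genes were higher and 28.2% lower (median 0.06, against -0.03 over all genes). The sides did not overlap for 15 members, against 32.8% of all genes. In sham L4, 9 were higher, 5 lower and 26 not called, where 12.8% of all genes were higher and 13.7% lower (median 0.03, against 0.01). The sides did not overlap for 10 members, against 17.4% of all genes. These balances turned with the scaling. Quantile normalization gave 6 higher and 9 lower in sham L5 and 3 higher and 4 lower in sham L4, and equal medians gave 6 higher and 18 lower in sham L5 and 6 higher and 14 lower in sham L4. The median of all probe sets in sham L5 moved from 0.06 to -0.03 and -0.11 under these scalings, and that in sham L4 from 0.06 to -0.02 and -0.07.

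*Snap25* was higher on the operated side of sham rats. In sham L4 its contralateral signals were 2050, 2150, 2190, 2310 and 2650 and its ipsilateral signals 3640, 3750, 3750, 3860 and 4250, with no overlap (log2 fold change 0.76, SE 0.07, limma adjusted p = 8.05e-07). In sham L5 they were 1560, 1670, 1700, 1710 and 1730 against 2300, 2350, 2410, 2900 and 3040, again without overlap (0.62, SE 0.08, limma adjusted p = 9.61e-06). The sham L5 value was -0.07 after quantile normalization, whereas the sham L4 rise was called under both scalings. *Syt4* in sham L4 had signals of 791, 792, 804, 940 and 946 against 984, 1190, 1270, 1290 and 1390, which did not overlap (0.51, SE 0.08, limma adjusted p = 0.000358), and its rise was called under both scalings too. *Cplx1*, complexin 1, had signals of 1570, 1760, 1810, 1910 and 2230 against 2400, 2520, 2530, 2640 and 2650 in sham L4. No ipsilateral array fell within the contralateral range (0.46, SE 0.07, limma adjusted p = 0.000255), but quantile normalization removed the call (0.03, limma adjusted p = 0.778). *Grik5* was dim in sham L4, with signals of 11.7, 13.2, 17.5, 18.9 and 22.6 against 23.6, 24.8, 32, 32.3 and 34.6, separated by a narrow gap (0.48, SE 0.12, limma adjusted p = 0.0102), and it too was not called after quantile normalization (adjusted p = 0.135).

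In sham L5 the largest rises on the brightest probe sets were those of *Grin2b*, *Cplx2* and *Grm8*, which were called under both scalings. *Grin2b* had signals of 8.63, 10.1, 10.4, 11.6 and 14.8 on the contralateral side and 26.1, 35.1, 35.1, 37.2 and 39.4 on the ipsilateral side. *Cplx2*, complexin 2, had signals of 23, 35.3, 37.9, 38.4 and 44.2 against 58.2, 60.4, 71.9, 73.4 and 94.6. *Grm8* had signals of 29.5, 30.2, 30.5, 33.1 and 35.1 against 53.9, 58.5, 64.6, 66.2 and 72.9. The sides of all 3 genes were separate, and their log2 fold changes were 0.90 for *Grin2b* (SE 0.09, limma adjusted p = 2.26e-06), 0.76 for *Cplx2* (SE 0.12, adjusted p = 0.000140) and 0.73 for *Grm8* (SE 0.08, adjusted p = 3.37e-06). *Grin2b* was dim on the contralateral side, and its dimmer probe set was called higher too (0.30, limma adjusted p = 0.0236). The dimmer *Grm8* probe sets were not called in sham L5 (0.15 and 0.14). *Slc17a7* fell by 0.25 in sham L5, a small value beside its falls in the SNL cohort, and *Grik1* had a log2 fold change of -0.01 there.

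The cohorts were compared by testing the SNL side difference against the sham side difference at the same level. At L5, 21 members had a lower difference in the SNL cohort and 5 a higher one, where 18.3% of all genes were lower and 32.1% higher. The median over the members was -0.40, against 0.08 over all genes. *Grik1* (-1.95, SE 0.11, limma adjusted p = 1.74e-13), *Slc17a7* (-1.85, SE 0.11, adjusted p = 2.34e-13) and *Vamp1* (-1.75, SE 0.09, adjusted p = 2.97e-14) had the largest differences. *Snap25* differed by -1.05 and *Rab3a* by -1.005, and each was called lower in SNL L5 and higher in sham L5. After quantile normalization, however, the sham L5 values were -0.07 for *Snap25* and -0.007 for *Rab3a*. The dimmer *Rab3a* probe set was not called in sham L5 (-0.12). Under quantile normalization 17 members were lower and 4 higher at L5, and at equal medians 20 were lower and 7 higher. The SNL L5 arrays are of another array series than the sham L5 arrays, so cohort and array series cannot be told apart at L5. At L4, 11 members had a lower difference in the SNL cohort and none a higher one, where 7.73% of all genes were lower and 8.93% higher (median -0.17, against 0.04). *Vamp2* (-1.57, SE 0.14, limma adjusted p = 1.20e-08) and *Slc17a7* (-1.24, SE 0.18, adjusted p = 1.77e-05) led at L4. All 11 are genes of vesicle release or of vesicle loading, which make up most of the members. With 7.73% of all genes lower, few calls would be expected among the 10 receptor subunits at that share, and none was among the 11. *Snap25*, *Snap91*, *Cplx1*, *Rab3a* and *Syt4* were not called in SNL L4 itself on their brightest probe sets. Their lower differences came with rises called in sham L4, of which those of *Cplx1* and *Rab3a* were not called after quantile normalization. The dimmer *Rab3a* probe set was called lower in sham L4 (-0.45, limma adjusted p = 0.00179). After quantile normalization 7 members were lower and 3 higher at L4, and at equal medians 9 were lower and 1 higher. The side difference of the GAPDH ratio was 0.95 in SNL L4 and 0.43 in sham L4. That of the actin ratio was 0.77 in SNL L4 and -0.21 in sham L4. The part of RNA integrity in the cohort differences was not tested.

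**Figure D4:**
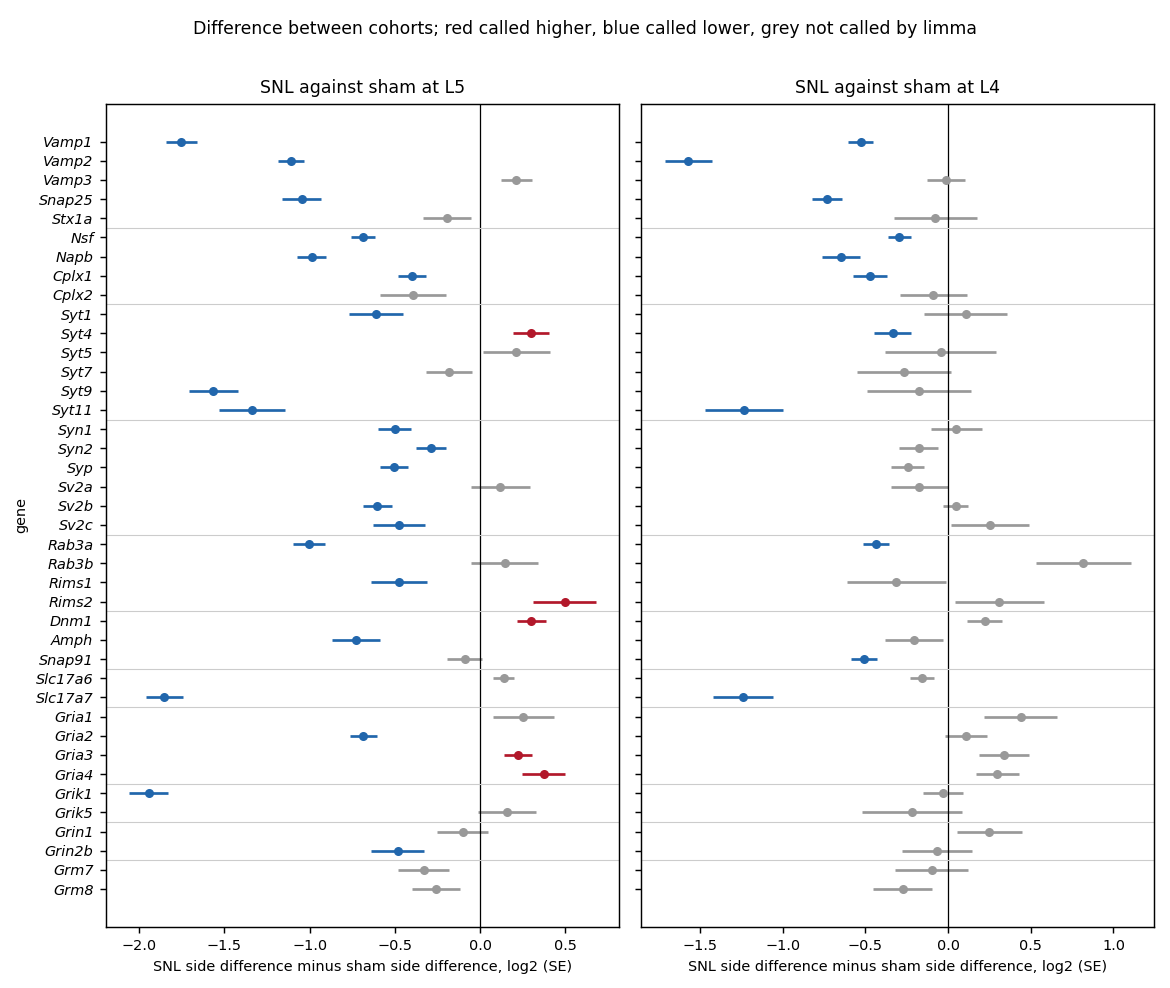
SNL side difference minus sham side difference on the log2 scale (horizontal axis) for each member (rows, grouped by role), at L5 and at L4. Points are the limma estimates and bars their SE, with members called higher in red, called lower in blue and not called in grey. *Grik1* at -1.95 and *Slc17a7* at -1.85 lie farthest left at L5, and *Vamp2* at -1.57 lies farthest left at L4.

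The segments also differed without injury or operation on that side. On the contralateral side of sham rats, 12 members were lower in L5 than in L4, 4 were higher and 24 were not called, where 12.3% of all genes were lower and 11.1% higher (median -0.10, against -0.01). The groups did not overlap for 12 members, against 14.5% of all genes. *Grik1* was higher in L5 (log2 difference 0.50, SE 0.05, limma adjusted p = 2.96e-05), as were *Syt11* (0.42), *Slc17a7* (0.26) and *Vamp2* (0.25). *Syp* (-0.48), *Cplx1* (-0.45) and *Snap25* (-0.43) led the members that were lower in L5 on their brightest probe sets. This split changed to 6 higher and 3 lower after quantile normalization and to 8 higher and 7 lower at equal medians. The dimmer probe sets of *Cplx1* (0.41, limma adjusted p = 0.00158) and *Rab3a* (0.29, limma adjusted p = 0.0220) were called higher in L5, where the brighter ones were called lower. Of 13 dimmer probe sets beside a called member, 0 were called the same way, 2 the opposite way and 11 were not called.

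The dimmer probe sets of the same genes gave larger falls for several members and larger rises for some. The dimmer *Vamp1* probe set had signals of 293, 305, 308, 316 and 331 on the contralateral side of SNL L4 and of 46.2, 52.0, 61.6, 76.1 and 85.6 on the ipsilateral side. In SNL L5 it had 380, 394, 395, 398 and 398 against 35.0, 41.2, 41.6, 47.6 and 51.7. Its log2 fold changes were -2.05 in SNL L4 (limma adjusted p = 2.94e-09) and -2.79 in SNL L5 (limma adjusted p = 6.73e-15), larger than those of the brighter probe set, and another, dim *Vamp1* probe set was called in neither. *Rab3a*, whose brighter probe set was not called in SNL L4, had signals of 308, 316, 317, 325 and 338 against 112, 113, 117, 133 and 141 there on its dimmer probe set. This separation was called (-1.28, limma adjusted p = 6.49e-09). Both dimmer *Nsf* probe sets fell in SNL L4 (-1.35 and -1.08) and in SNL L5 (-1.26 each). *Cplx1* fell on its dimmer probe set in SNL L4 (-0.80) and in SNL L5 (-1.07), where the brighter was not called in either. *Sv2b* fell on a dimmer probe set in SNL L4 (-0.58) while its brightest rose. *Gria2* fell on its dimmer probe set in SNL L5 (-1.36) and also in sham L5 (-0.34), where the brighter one was called higher. The dimmer *Gria3* probe set had signals of 13.5, 17.3, 17.4, 20.1 and 31 on the contralateral side of SNL L4 and of 32.4, 48.3, 55.6, 62.4 and 103 on the ipsilateral side. These did not overlap (1.04, SE 0.21, limma adjusted p = 0.00198), where the brighter one was not called, and it was called higher in sham L5 too (0.52, limma adjusted p = 0.00364). In SNL L4 the dimmer *Gria2* probe set was called lower (-0.35, limma adjusted p = 0.0479), and a dim *Sv2b* probe set was called higher (0.72, limma adjusted p = 0.0435). The dimmer *Grin1* probe set was called higher in sham L5 (0.96, limma adjusted p = 2.19e-05), where the brighter one was called lower (-0.39), and in sham L4 (0.47, limma adjusted p = 0.0487). A dimmer *Gria4* probe set was called higher in sham L5 (0.41, limma adjusted p = 0.000710). The dimmer *Vamp2* probe set was near the floor of the arrays and was called in no side comparison. Over the 26 dimmer probe sets, 20 stood beside a called member in SNL L5, and of these 11 were called the same way, 3 the opposite way and 6 were not called. In SNL L4 these counts were 5, 2 and 5 of 12, in sham L5 they were 1, 2 and 14 of 17, and in sham L4 they were 1, 2 and 8 of 11. Dimmer probe sets of *Nsf*, *Rab3a*, *Sv2b*, *Syn1* and *Vamp1* were also called lower in sham L4 (-0.40 to -0.55), where the GAPDH ratio was higher on the ipsilateral side by 0.43 and the actin ratio differed by -0.21. The part of RNA integrity in these differences was not tested.

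**Figure D5:**
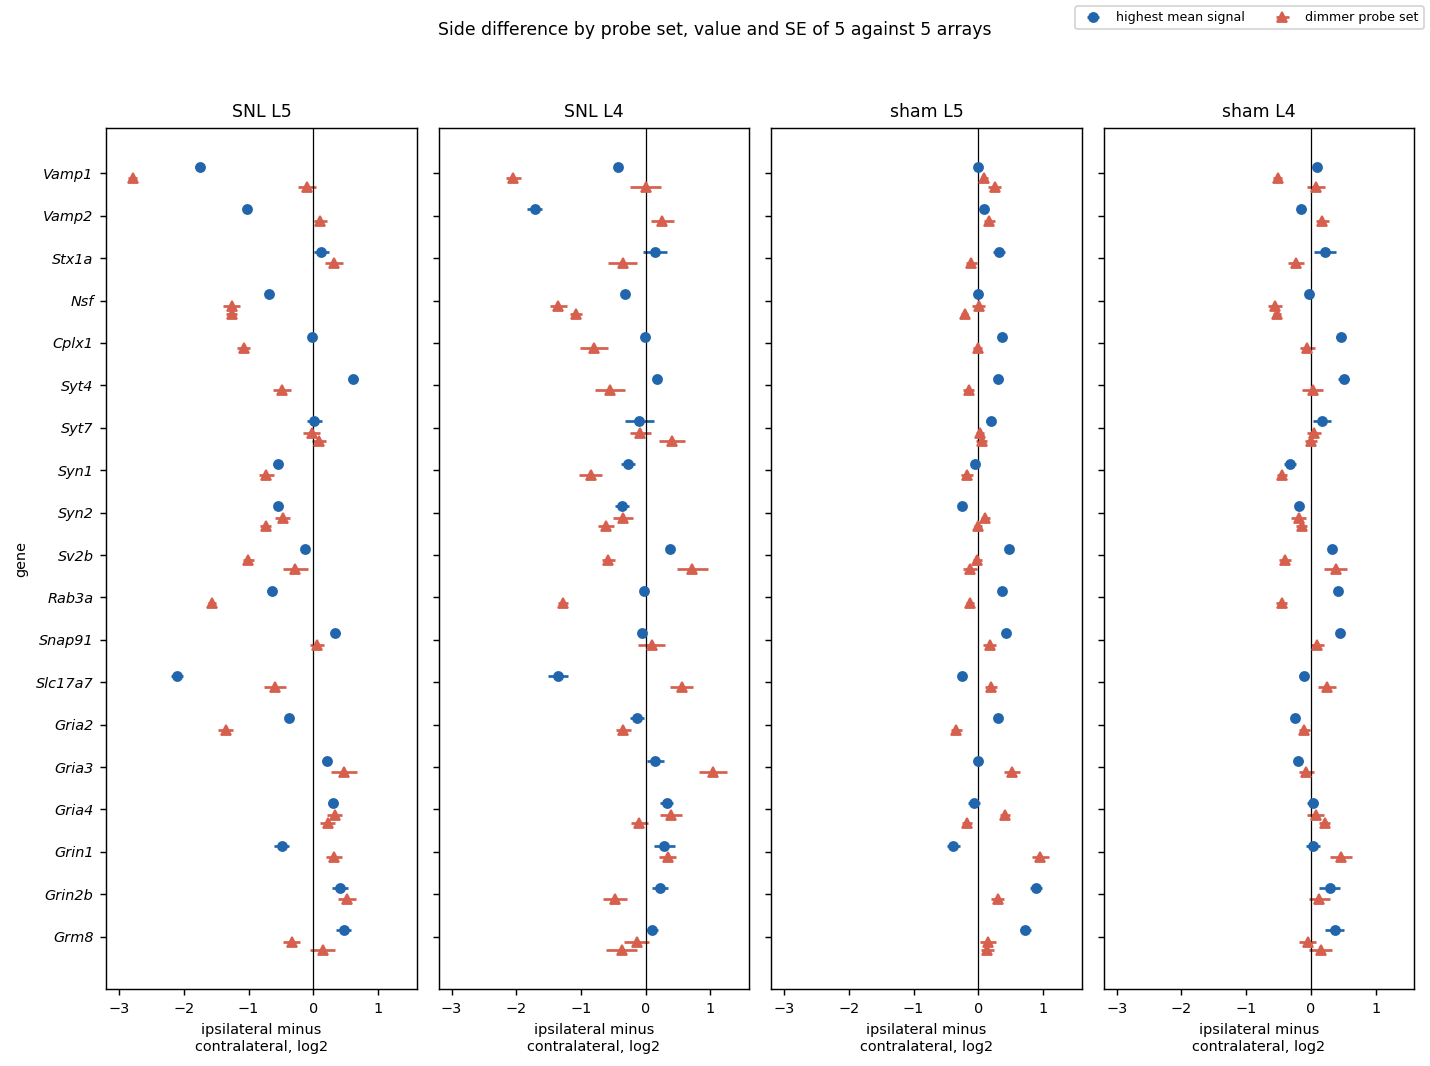
Log2 fold change, ipsilateral minus contralateral, with its SE (horizontal axis) for the brightest probe set (circles) and the dimmer ones (triangles) of the 19 members that have several, in each side comparison of 5 against 5 arrays. A dimmer *Vamp1* probe set, at -2.79 in SNL L5, lies farthest left, and the dimmer *Gria3* probe set, at 1.04 in SNL L4, lies farthest right.

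Markers of DRG cell types moved as well. For scale, 35.4% of all genes were called higher and 19% lower in SNL L5, and 11% and 10% in SNL L4. In the sham cohort these shares were 12.8% and 13.7% at L4 and 21.4% and 28.2% at L5. In SNL L5, 5 of 9 neuronal markers were lower and 2 higher, and their summed signal went from 13816 to 17305 on the contralateral side to 11760 to 13545 on the ipsilateral side. *Rbfox3*, the nuclear protein NeuN, fell by 2.05 there, while *Tubb3* and *Prph* were higher. In SNL L4, 6 neuronal markers were higher and 3 lower. In the sham cohort 6 were higher and 1 lower at L4 and 7 were higher and 1 lower at L5, and the summed signal was above that of the contralateral side on every ipsilateral array (18647 to 20061 against 11912 to 14140 at L4, and 14195 to 17738 against 9511 to 10603 at L5). Macrophage markers were higher in SNL L5 for 6 of 7 genes, with a summed signal of 2939 to 3235 against 495 to 555, and fibroblast markers for 6 of 6. In SNL L4 these were 4 of 7 and 5 of 6. Schwann cell markers were higher in SNL L5 for 4 of 5 genes (median 0.38) and endothelial markers for 4 of 4 (median 0.55). The Schwann cell markers had like medians in the sham cohort. There 3 were higher and 2 lower at L5 (median 0.38), and 3 were higher and 1 lower at L4 (median 0.33). Of 5 satellite glia markers measured, 2 were higher and 1 lower in SNL L5 (median 0.11), and 1 was lower in SNL L4 (median -0.03). Skeletal muscle markers were lower in SNL L5 for 5 of 6 genes and higher for 1 (median -3.72), with a summed signal of 1310 to 1452 against 4184 to 4879, and in SNL L4 2 were higher. Blood markers were lower in SNL L5 for 4 of 4 genes (median -0.76) and in SNL L4 for 3 of 4 (median -1.59, summed signal 918 to 1156 against 2785 to 3164). The part of cell composition in the members' changes was not tested. Markers of central nervous tissue, 10 genes, had group means of at most 51.9 each.

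Other genes of the same machinery went both ways. Of 69 further presynaptic genes, 58 were measured, and 23 were lower and 17 higher in SNL L5 (median -0.07), where 19% of all genes were lower and 35.4% higher. In SNL L4, 9 were lower and 6 higher (median -0.05), where 10% of all genes were lower and 11% higher. In sham L4, 7 were lower and 6 higher, against 13.7% and 12.8% of all genes, and in sham L5, 17 were lower and 14 higher, against 28.2% and 21.4%. *Rab27b*, a GTPase of secretory vesicles, fell from 266 ± 8.65 to 70.4 ± 7.76 (SD, n = 5) in SNL L5, a log2 fold change of -1.71 (limma adjusted p = 1.72e-12). *Cadps2*, which primes dense-core vesicles, fell from 325 ± 35.0 to 91.9 ± 15.3 (-1.67, limma adjusted p = 1.97e-10). *Slc18a2*, the vesicular monoamine transporter, fell in SNL L5 (-1.02) and in SNL L4 (-0.91, limma adjusted p = 3.79e-06). *Stx4* (0.79), *Bin1* (0.77) and *Syngr1* (0.74) were higher in SNL L5. In SNL L4, *Ap2b1*, a subunit of the clathrin adaptor AP-2, fell by 0.73 and *Stx12* fell by 0.70 on the log2 scale, while *Rimbp2* (0.79) and *Sh3gl1* (0.51) were higher.

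Of 37 further genes of glutamate receptors and their scaffolds, 34 were measured. In SNL L5, 10 were higher and 8 lower (median 0.07), where 35.4% of all genes were higher and 19% lower. In SNL L4, 3 were higher and 1 lower (median 0.17), against 11% and 10% of all genes. In sham L4, 6 were higher and 2 lower, against 12.8% and 13.7%, and in sham L5, 8 were higher and 4 lower, against 21.4% and 28.2%. *Dlg1*, the scaffold SAP97, rose in SNL L5 from 147 ± 12 to 260 ± 19.5 (SD, n = 5; log2 fold change 0.77, limma adjusted p = 4.90e-08). *Shank1*, a dim scaffold gene, fell by 0.92 there. In SNL L4, *Grin3a* (0.75) and *Cacng7* (0.70) were higher and *Cacng3* (-0.64) was lower, each with overlapping sides.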

How the data were processed

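RNA from single rat L4 and L5 DRGs was hybridised to Affymetrix rat genome arrays (Rat230_2). The authors computed MAS 5 signals, and the deposited values are linear intensities, 1 table of 40 arrays. Which MAS 5 version they ran is not stated in those notes or methods. Groups came from the sample labels. After removal of 57 control probe sets, 31042 were tested on log2(signal + 16) with limma 3.58.1 (R 4.3.3; lmFit, eBayes with an intensity trend) and Benjamini-Hochberg adjustment over all of them. Each side comparison used its own 10 arrays, and differences between side effects used 20. The platform annotation gives 1 symbol for 20826 probe sets, several for 436 and none for 9780. Only probe sets with 1 symbol were named.

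The members, the lists and the roles were chosen with earlier results of these data known. Values on single arrays are given for members that were called in a SNL comparison with no overlap of the sides (at most the 12 largest changes) and for up to 4 in each sham comparison. Of the other pathway genes, up to 4 rises and 4 falls per SNL comparison are named.

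Rat numbers in the labels pair the sides of 1 rat. Deviations of paired arrays from their group means correlated by -0.01 to 0.04 in SNL L4, -0.06 to 0.04 in SNL L5, -0.05 to 0.10 in sham L4 and -0.14 to 0.01 in sham L5. The main fits have no rat block, and a fit with it was an alternative. The others were offsets of 1 and 64, quantile normalization, scaling to equal medians, no intensity trend, probe sets above the median signal, 1 fit of all 8 groups, the methods' t-test, and leaving out each array. The number of arrays limits the precision. No 2 arrays were duplicates (highest correlation 0.996). The scripts were tested on simulated data. Promoters came from RefSeq (GRCr8).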

Additional observations from a re-analysis of the deposited data

Results flagged for a closer look

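Side differences of the 40 members were compared between cohorts and between segments, and 52 of 120 such differences passed the limma test. Over all genes, 8.93% were higher and 7.73% lower in the test of cohorts at L4. These shares were 32.1% and 18.3% for cohorts at L5, and 15.1% and 10.3% between segments. Values are differences of log2 fold changes. The 3 sets share arrays, and no explanation of them was tested.

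At L4, the side difference was lower in the SNL cohort than in the sham cohort for *Vamp2* (-1.57), *Slc17a7* (-1.24), *Syt11* (-1.23), *Snap25* (-0.73), *Napb* (-0.65), *Vamp1* (-0.53), *Snap91* (-0.51), *Cplx1* (-0.47), *Rab3a* (-0.43), *Syt4* (-0.34) and *Nsf* (-0.29). In SNL L4 itself *Snap25* (0.03), *Snap91* (-0.06), *Cplx1* (-0.01), *Rab3a* (-0.02) and *Syt4* (0.17) were not called on their brightest probe sets. They were called higher in sham L4 (0.76, 0.45, 0.46, 0.41 and 0.51). After quantile normalization the sham L4 calls of *Cplx1* and *Rab3a* were lost. The dimmer *Rab3a* probe set was called lower in sham L4 (-0.45, limma adjusted p = 0.00179), and that of *Cplx1* was not called (-0.06).

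At L5, it was lower in the SNL cohort for *Grik1* (-1.95), *Slc17a7* (-1.85), *Vamp1* (-1.75), *Syt9* (-1.56), *Syt11* (-1.34), *Vamp2* (-1.11), *Snap25* (-1.05), *Rab3a* (-1.005), *Napb* (-0.99), *Amph* (-0.73), *Nsf* (-0.69), *Gria2* (-0.68), *Syt1* (-0.61), *Sv2b* (-0.60), *Syp* (-0.51), *Syn1* (-0.50), *Grin2b* (-0.48), *Rims1* (-0.48), *Sv2c* (-0.48), *Cplx1* (-0.40) and *Syn2* (-0.29). It was higher there for *Rims2* (0.50), *Gria4* (0.37), *Dnm1* (0.30), *Syt4* (0.30) and *Gria3* (0.22). *Grin2b* was nonetheless called higher in SNL L5 (0.41), by less than in sham L5 (0.90). On their brightest probe sets *Rims1* (0.06), *Cplx1* (-0.03) and *Sv2b* (-0.13) were not called in SNL L5 but were called higher in sham L5. None of these sham L5 rises was called after quantile normalization, and the dimmer probe sets of *Cplx1* and *Sv2b* were not called in sham L5. *Sv2c* was called in neither SNL L5 nor sham L5. *Dnm1* (0.08) was not called in SNL L5 and was called lower in sham L5 (-0.22). Cohort and array series cannot be told apart in this comparison.

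Within the SNL cohort, the side difference was lower at L5 than at L4 for *Grik1* (-1.83), *Vamp1* (-1.32), *Syt9* (-0.96), *Grin1* (-0.77), *Slc17a7* (-0.75), *Rab3a* (-0.62), *Sv2b* (-0.50), *Snap25* (-0.45), *Nsf* (-0.37) and *Syp* (-0.33). It was higher at L5 for *Vamp2* (0.69), *Syt4* (0.44), *Snap91* (0.41), *Vamp3* (0.32) and *Slc17a6* (0.20). Array series and segment cannot be told apart in this comparison.

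Single arrays far from the other 4 of their group were looked for in 56 groups of 5, by the gap to the nearest array as a share of the group's range. *Syt9* had such an array on both sides of SNL L5, with a signal of 9.62 on the ipsilateral side (share 0.738) and of 41.1 on the contralateral side (share 0.949), against a critical value of 0.71. Chance gives about 1 such array in 20 groups.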

How the results depend on the processing

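The falls of *Vamp1*, *Vamp2*, *Syt11*, *Syn2*, *Nsf*, *Napb* and *Slc17a7* in both SNL comparisons were called as deposited, after quantile normalization and at equal medians. Without an intensity trend 9 members were called in SNL L4, and the calls of *Dnm1*, *Gria4*, *Syn2* and *Vamp3* were lost there. The SNL L4 call of *Syn2* was also lost in the methods' t-test, both at its own threshold and after Benjamini-Hochberg adjustment. Leaving out each array in turn gave 10 to 13 called members for SNL L4, 26 to 28 for SNL L5, 11 to 15 for sham L4, 17 to 19 for sham L5 and 12 to 17 between the contralateral segments. Calls lost without a single array were those of *Cplx2*, *Gria4*, *Rab3b* and *Syn2* in SNL L4, *Cplx2* and *Slc17a6* in SNL L5, *Cplx2*, *Gria3*, *Syn1* and *Vamp3* in sham L4 and *Syt7* in sham L5. The methods' t-test at its threshold of p below 0.001 called 7 members for SNL L4, 15 for SNL L5, 6 for sham L4 and 10 for sham L5, and after Benjamini-Hochberg adjustment it called 8 in SNL L4. Quantile normalization gave 7 in sham L4 and 9 between the segments. With the rat as a replicate block, 14 members were called for SNL L4, 27 for SNL L5, 14 for sham L4, 19 for sham L5 and 16 between the segments, and the differences between side effects gave 11 (cohorts at L4), 26 (cohorts at L5) and 14 (segments). The block lost the calls of *Cplx2* and *Slc17a6* in SNL L5 and of *Gria3* in sham L4 (adjusted p = 0.0667 from limma).

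Some log2 fold changes changed sign. After quantile normalization these were *Snap25* in SNL L4 (-0.17) and, in sham L5, *Snap25* (-0.0651), *Syt9* (-0.0174), *Syp* (-0.20), *Rab3a* (-0.00693), *Cplx1* (-0.14) and *Grik1* (0.14). At equal medians these were *Vamp3* (-0.17) and *Slc17a6* (-0.0886) in SNL L5 and *Vamp2* (-0.22), *Syt4* (-0.00025), *Syp* (-0.23) and *Amph* (-0.24) in sham L5. The cause was not tested. Signals near the floor of the arrays, such as those of *Syt1*, *Syt9*, *Syt11* and *Grik5*, limit the size of a fold change.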
